A study of Mus musculus with 4 samples.

Results

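The genes Spi1, Zeb2, Cebpa, Cebpb, Cebpd, Maf, Runx1, Runx3 and Bhlhe40 encode 9 transcription factors of the macrophage lineage. They were taken from the count table by their symbols, and all 9 were among its 21878 genes and among the 12494 that passed the filter on low counts. The question addressed was whether macrophages with lowered Act1, an adaptor protein of interleukin-17 receptor signalling, held these lineage genes at other levels than wild type macrophages when both were grown beside tumor cells.

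Bone marrow-derived macrophages (BMDMs) of C57BL/6 mice, labelled as 8 weeks old, were compared in 2 libraries from anti-Act1 mice and 2 from wild type (WT) mice. Anti-Act1 mice carry a knockdown of Act1 that the study calls macrophage-specific; the promoter that drives it is not given in the sources used here. The macrophages had been differentiated with M-CSF, and both groups were cocultured across a permeable insert with MC38, a mouse colon cancer cell line, for 48 h by the labels, whereas a legend of the study gives 24 h. No library without tumor cells is part of the comparison.

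PU.1, the protein of Spi1, opens chromatin at myeloid enhancers and is needed throughout macrophage life. C/EBP and RUNX factors bind beside it: C/EBPα and RUNX1 act early in myeloid development, while C/EBPβ and C/EBPδ are induced by inflammatory signals. MAF promotes the resident, scavenging state of mature macrophages, ZEB2 is a zinc finger repressor that preserves tissue macrophage identity, and BHLHE40 is a helix-loop-helix repressor induced by stress and inflammation.

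Total counts were 64199075 and 75062945 in the WT libraries and 61926229 and 55435063 in the anti-Act1 libraries. Levels are given as CPM (counts scaled to a common library total after TMM) when a gene is compared between libraries and as FPKM (fragments per gene length and library total) when genes are compared with each other. A gene with 3 counts in a library, the limit that a count of 0 allows, would lie at 0.0395 to 0.0549 CPM; this limit covers counting error only. Differences were tested with edgeR's quasi-likelihood test, two-sided, with Benjamini-Hochberg adjustment over the 12494 genes, and a gene was called at an adjusted p under 0.05. Permuting 2 against 2 libraries exactly could give no p under 0.33.

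The labels were checked on the targeted transcript. Traf3ip2, which encodes Act1, measured 6.98 CPM in WT replicate 1, 7.54 CPM in WT replicate 2, 9.63 CPM in anti-Act1 replicate 1 and 7.84 CPM in anti-Act1 replicate 2. The knockdown was thus not visible in its own transcript (log2 fold change 0.27, SE 0.12; adjusted p = 0.117 by edgeR), so every direction below rests on the labels. The study itself reports a marked reduction of Act1 in BMDMs from anti-Act1 mice, by an assay that its legend does not name. Ddx3y, a gene of the Y chromosome, stood at 88.9 and 97.0 CPM in the WT pair, while the anti-Act1 pair had 0 counts of it. Sex and genotype therefore cannot be told apart in any value below.

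Of the 9 factor genes, 2 were higher and 5 were lower in the libraries labelled anti-Act1, and 2 were not called. Runx3 rose 1.68-fold and Bhlhe40 rose 1.36-fold, whereas Cebpb fell to 0.539 times its WT level, and Cebpa, Cebpd, Maf and Runx1 fell less. Spi1 and Zeb2, which head the myeloid hierarchy and guard macrophage identity, were not called. Over all genes tested, 20.7% were called, 10.9% higher and 9.76% lower. Among the 4027 tested genes with a mean of at least 50 CPM, a level that 7 of the 9 factors exceed, 29.7% were called. The CPM of the groups did not overlap for 7 of the 9 factors, against 57.1% of all genes. DESeq2, the tool of the study, called 4 of the 9 and 16.6% of the 11968 genes to which it gave an adjusted p. By edgeR, the count of lower factors was 4 without WT replicate 1 and 3 without any of the other libraries. In bulk RNA, fewer cells of a type and less RNA per cell cannot be told apart.

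**Figure D1:**
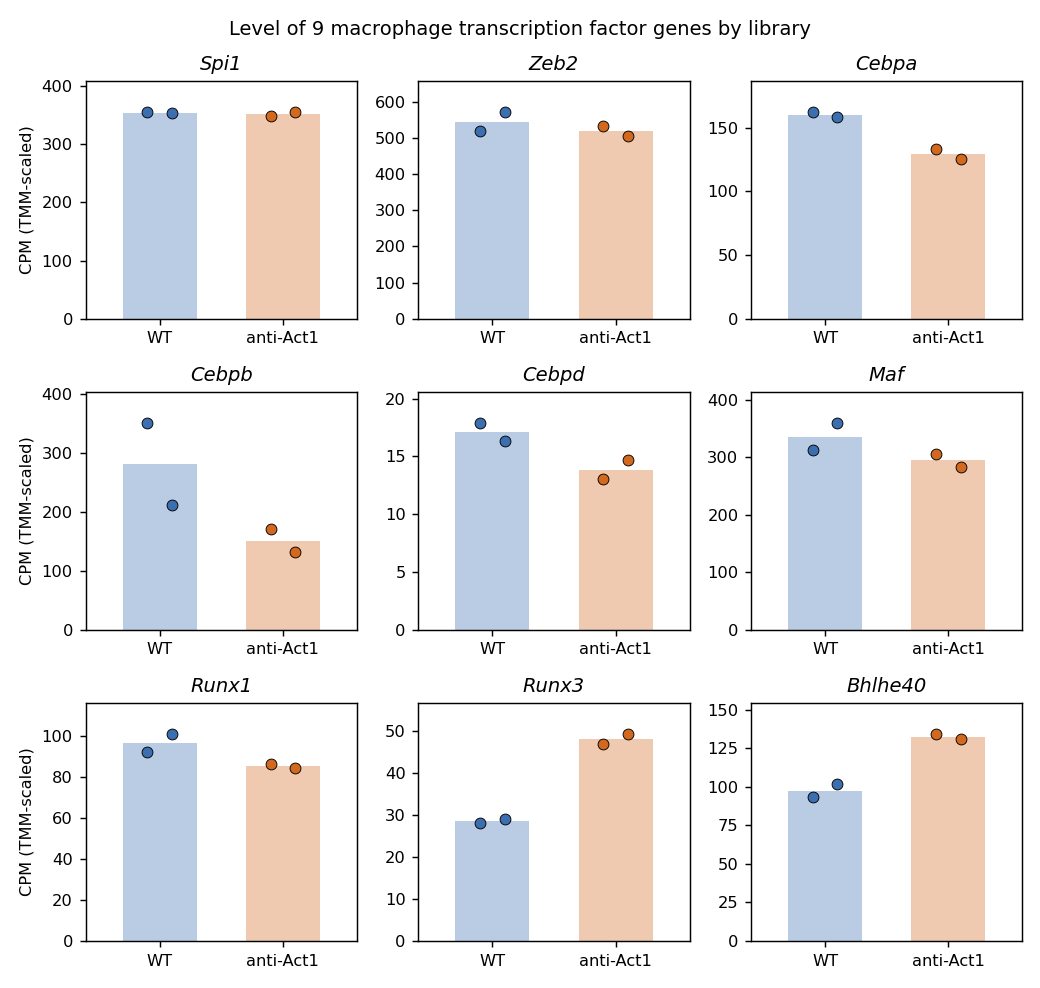
CPM after TMM scaling of each of the 9 factor genes, with each point a library and each bar the mean of 2 libraries, and with an axis from 0 that differs between panels. Runx3 and Bhlhe40 stand higher and Cebpa, Cebpb, Cebpd, Maf and Runx1 lower in the anti-Act1 libraries, while the points of Spi1 and Zeb2 overlap between groups.

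All 9 factors were well expressed, and their order by FPKM was the same in both groups. In the WT libraries Spi1 was the highest at 247 ± 0.475 FPKM (SD, n = 2), followed by Cebpb at 187 ± 64.8, Maf at 93.1 ± 9.47 and Zeb2 at 79.7 ± 5.73 FPKM. Cebpa followed at 61.3 ± 0.961, Bhlhe40 at 31.6 ± 2.05, Runx1 at 15.3 ± 1.02, Runx3 at 7.92 ± 0.187 and Cebpd at 7.64 ± 0.460 FPKM. Runx3 and Cebpd were the only neighbors in this order whose WT libraries overlapped. In the anti-Act1 libraries Maf overlapped with Zeb2, and Runx1 with Runx3, so that these neighbors did not differ beyond their spread. The order was also the same in the WT libraries when CPM after TMM scaling was divided by gene length. By the GENCODE M21 annotation, 7 of the 9 factors overlap a gene on the opposite strand, a protein-coding gene for Cebpb and Cebpd and noncoding genes for Maf, Cebpa, Runx1, Zeb2 and Bhlhe40. Only Spi1 and Runx3 overlap none. Whether the counting used strand is not given in the sources used here, so reads of these genes and of their overlapping partners may not be told apart.

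Spi1 encodes PU.1, the ETS factor on which the whole macrophage program depends, and lies on chromosome 2. It measured 355.1 and 354.4 CPM in the WT libraries and 349.5 and 355.7 CPM in the anti-Act1 libraries. The 4 libraries lay within a few CPM of each other, and the groups overlapped. This left a log2 fold change of -0.01 (SE 0.05, 95% interval -0.11 to 0.09; adjusted p = 0.931 by edgeR).

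Zeb2, also on chromosome 2, measured 518.9 and 571.8 CPM in the WT libraries and 534.3 and 504.8 CPM in the anti-Act1 libraries. It had the highest counts of the 9 genes and its groups overlapped, with anti-Act1 replicate 1 above WT replicate 1. The difference was -0.07 on the log2 scale (SE 0.05, 95% interval -0.18 to 0.04; adjusted p = 0.392 by edgeR). Zeb1, the paralog of Zeb2 better known from epithelial-mesenchymal transition, was low: Zeb2 exceeded it 82.5-fold and 90.4-fold by FPKM in the WT libraries and 80.1-fold and 61.6-fold in the anti-Act1 libraries.

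The 3 C/EBP genes were all lower in the libraries labelled anti-Act1. Their proteins bind the same DNA motif as dimers with each other. The 300 bases around the start sites of Cebpb and Cebpa are shown because these genes moved in the same direction; capitals mark the letters TATAAA, and each runs from 250 bases before to 50 after the start (RefSeq, GRCm38.p6). The Cebpb stretch is at chr2:167688665-167688964 and the Cebpa stretch at chr7:35119043-35119342, both on the plus strand. Counted from 0 at the annotated start, the capitals begin at position 21, past the start, in Cebpb and at position -30, before it, in Cebpa.
Cebpb: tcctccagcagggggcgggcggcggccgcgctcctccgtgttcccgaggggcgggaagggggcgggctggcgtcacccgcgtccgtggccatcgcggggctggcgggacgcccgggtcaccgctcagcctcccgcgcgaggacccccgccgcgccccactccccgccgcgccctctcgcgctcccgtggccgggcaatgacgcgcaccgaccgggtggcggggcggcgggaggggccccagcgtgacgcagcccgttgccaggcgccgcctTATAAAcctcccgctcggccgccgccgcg
Cebpa: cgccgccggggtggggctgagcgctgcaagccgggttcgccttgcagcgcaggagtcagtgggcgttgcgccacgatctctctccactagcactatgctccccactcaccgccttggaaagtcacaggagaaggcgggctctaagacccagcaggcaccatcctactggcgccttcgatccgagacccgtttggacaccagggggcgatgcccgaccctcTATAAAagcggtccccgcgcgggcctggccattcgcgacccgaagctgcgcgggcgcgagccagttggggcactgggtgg
On either strand, TATAAA was found in 13.6% of the 32851 promoters of this table. The RefSeq promoter table matched 5 of the 9 factors (Cebpa, Cebpb, Runx1, Runx3 and Zeb2) with 10 start sites; Spi1, Maf, Cebpd and Bhlhe40 had no entry. Neither stretch shown holds TTGCNNCAA, letters of a C/EBP motif, or TGACGTCA, a cyclic AMP response element, which occur in 2.08% and 1.79% of all promoters. Such matches describe the letters only.

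Cebpb, the C/EBP gene linked to inflammatory and alternative macrophage activation, measured 351.1 CPM in WT replicate 1, 211.8 CPM in WT replicate 2, 170.4 CPM in anti-Act1 replicate 1 and 132.8 CPM in anti-Act1 replicate 2. Both anti-Act1 libraries were below both WT libraries, but WT replicate 1 stood far above WT replicate 2. Between the groups the log2 fold change was -0.89 (SE 0.10; adjusted p = 1.1e-09 by edgeR). This SE borrows its spread from other genes, whereas the replicates of Cebpb itself differed by 0.73 (WT) and 0.36 (anti-Act1) on the log2 scale. Leaving out WT replicate 1 gave -0.48 and leaving out WT replicate 2 gave -1.21, both with an adjusted p under 0.05 in edgeR. DESeq2 gave a change of the same size with an adjusted p of 0.118. The 1.66-fold ratio between the WT replicates was reached or exceeded by 0.432% of 10892 genes with a mean of at least 1 CPM, and the ratio between the anti-Act1 replicates by 3.88%.

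Cebpb has a single exon and a GC content of 67.2%. The 34 single-exon genes with at least 50 CPM had a median log2 fold change of 0.03 and a median log2 ratio of WT replicate 1 to WT replicate 2 of -0.01. Of the genes at this level, Cebpb is 1 of only 4 with a GC content of at least 65%, too few to check its difference against genes of like GC content. Tmem189, the gene that overlaps Cebpb on the opposite strand, rose from 574 ± 8.39 to 687 ± 19.7 CPM (SD, n = 2; log2 difference 0.26; adjusted p = 7.4e-05 by edgeR), the opposite direction to Cebpb.

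Cebpa, which directs progenitors into the myeloid lineage, measured 162.3 and 158.0 CPM in the WT libraries and 133.5 and 125.7 CPM in the anti-Act1 libraries. The replicates of each group lay close together, and the groups did not overlap. Cebpa thus fell by 0.31 on the log2 scale (SE 0.05; adjusted p = 1.2e-05 by edgeR). It was called lower under all 16 alternatives tried, with values from -0.41 to -0.26.

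Cebpd, an acute phase factor induced by cytokines, was the lowest of the 3 genes. It measured 17.9 and 16.3 CPM in the WT libraries and 13.04 and 14.7 CPM in the anti-Act1 libraries, without overlap. It fell by 0.30 on the log2 scale (SE 0.09; adjusted p = 0.0104 by edgeR). The call was lost in DESeq2 (adjusted p = 0.0608), without WT replicate 1 (log2 fold change -0.24, edgeR adjusted p = 0.0987) and without anti-Act1 replicate 1 (log2 fold change -0.22, edgeR adjusted p = 0.214). Spidr is the gene that overlaps it on the opposite strand.

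By FPKM, the makeup of the C/EBP family varied with Cebpb. The summed level of the 3 genes was 303 and 209 FPKM in the WT libraries and 168 and 140 FPKM in the anti-Act1 libraries. Cebpb made up 76.9% and 67.5% of this sum in the WT libraries and 66.6% and 61.8% in the anti-Act1 libraries. The shares of WT replicate 2 and anti-Act1 replicate 1 differed by less than those of the 2 WT libraries. The ratio of Cebpb to Cebpa was 3.76 and 2.33 in the WT libraries and 2.22 and 1.83 in the anti-Act1 libraries, and the ratio of Cebpd to Cebpa overlapped between groups, at 0.128 and 0.121 against 0.114 and 0.136.

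**Figure D2:**
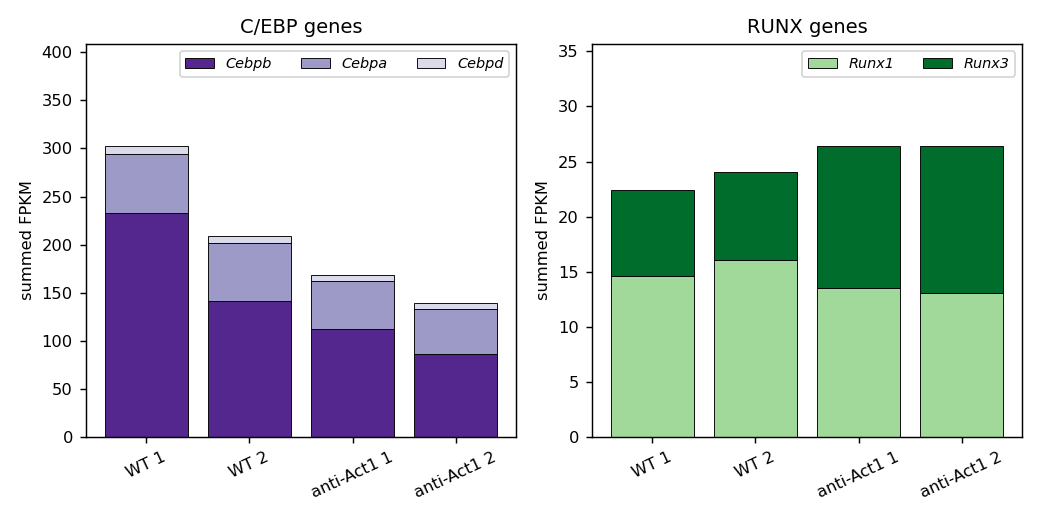
Deposited FPKM of the C/EBP genes (left) and of the RUNX genes (right), stacked so that each bar is the summed level of the family in a library. The summed C/EBP level is lower in both anti-Act1 libraries with Cebpb as the largest share throughout, and Runx3 takes a larger share of the RUNX sum in both anti-Act1 libraries.

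Maf encodes c-MAF, a large MAF factor that drives interleukin-10 and complement genes in macrophages. It measured 312.7 CPM in WT replicate 1, 359.5 CPM in WT replicate 2, 306.4 CPM in anti-Act1 replicate 1 and 282.7 CPM in anti-Act1 replicate 2. The groups did not overlap, but WT replicate 1 and anti-Act1 replicate 1 were closer to each other than the WT replicates were. Maf fell by 0.19 on the log2 scale (SE 0.06; adjusted p = 0.010 by edgeR). The difference was -0.09 without WT replicate 2 (edgeR adjusted p = 0.364) and -0.13 without anti-Act1 replicate 2 (edgeR adjusted p = 0.250), neither of them called, and DESeq2 gave an adjusted p of 0.314.

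Runx1 and Runx3 encode DNA-binding subunits of core binding factor, which share the partner CBFβ. The upstream start sites of both genes hold 2 RUNX motifs (TGTGGT, printed here as its reverse complement ACCACA) with the same spacing, but not at the same place. Counted from 0 at the annotated start, they begin at positions 28 and 36, past the start, in Runx1 and at positions -134 and -126, before it, in Runx3. They are shown for the shared pair in genes that moved in opposite directions, with the motif in capitals (RefSeq, GRCm38.p6). The Runx1 stretch is at chr16:92826025-92826324 on the minus strand and the Runx3 stretch at chr4:135120395-135120694 on the plus strand.
Runx1: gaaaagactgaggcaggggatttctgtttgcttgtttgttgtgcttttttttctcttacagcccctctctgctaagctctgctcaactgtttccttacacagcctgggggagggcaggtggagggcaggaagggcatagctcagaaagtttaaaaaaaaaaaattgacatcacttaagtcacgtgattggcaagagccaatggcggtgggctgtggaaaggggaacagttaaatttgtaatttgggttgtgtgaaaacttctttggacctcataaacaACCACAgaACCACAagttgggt
Runx3: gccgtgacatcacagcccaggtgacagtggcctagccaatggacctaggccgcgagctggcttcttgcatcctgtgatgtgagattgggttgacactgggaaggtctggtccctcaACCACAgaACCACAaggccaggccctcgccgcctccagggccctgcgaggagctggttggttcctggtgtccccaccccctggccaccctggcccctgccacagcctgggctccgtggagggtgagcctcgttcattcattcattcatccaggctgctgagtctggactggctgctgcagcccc
On either strand, TGTGGT occurs in 16.8% of the 32851 promoters and at 2 or more positions in 1.81%. The longer TGTGGTTCTGTGGT, which contains both copies with their spacing, occurs in 4 promoters, those of Runx1, Runx2, Runx3 and Gm16225. The counts do not separate transcripts of this start site from those of the downstream start site that the table lists for each gene.

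Runx3, better known for its roles in T cells, natural killer cells and dendritic cells, was the factor with the largest rise. It measured 28.2 and 29.0 CPM in the WT libraries and 47.0 and 49.2 CPM in the anti-Act1 libraries. The replicates agreed closely, and the groups were far apart. Runx3 rose by 0.75 on the log2 scale (SE 0.06; adjusted p = 5.0e-13 by edgeR) and was called under all 16 alternatives, from 0.66 to 0.79.

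Runx1 measured 92.2 and 100.8 CPM in the WT libraries and 86.3 and 84.4 CPM in the anti-Act1 libraries, without overlap. It fell by 0.18 on the log2 scale (SE 0.06; adjusted p = 0.0179 by edgeR and 0.0348 by DESeq2). The call was lost without WT replicate 2 (log2 fold change -0.11, edgeR adjusted p = 0.256), without anti-Act1 replicate 1 (-0.19, edgeR adjusted p = 0.0936) and without anti-Act1 replicate 2 (-0.16, edgeR adjusted p = 0.183). The fall of Runx1 was smaller in size than the rise of Runx3.

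By FPKM, Runx3 went from well below Runx1 to near equality with it. Its share of the summed level was 34.8% and 33.4% in the WT libraries and 48.8% and 50.5% in the anti-Act1 libraries. The ratio of Runx3 to Runx1 was 0.534 and 0.503 in the WT libraries and 0.952 and 1.02 in the anti-Act1 libraries. The summed level was 22.4 and 24.1 FPKM against 26.4 and 26.4 FPKM. Runx2, the skeletal member of the family, named here after its values were seen because it holds the same motif pair, measured 7.52 and 9.24 CPM against 9.31 and 8.83 CPM, and the groups overlapped. Cbfb measured 93.5 and 103 CPM against 99.7 and 92.3 CPM, and the groups overlapped (edgeR adjusted p = 0.716).

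Bhlhe40, on chromosome 6, represses clock genes and interleukin-10 in immune cells. It measured 93.3 and 101.8 CPM in the WT libraries and 134.2 and 130.9 CPM in the anti-Act1 libraries. Both anti-Act1 libraries lay well above both WT libraries. Bhlhe40 rose by 0.44 on the log2 scale (SE 0.05; adjusted p = 1.0e-08 by edgeR) and was called under all 16 alternatives, from 0.38 to 0.51. Its paralog Bhlhe41 also rose by 0.44 on this scale, from 209 ± 4.52 to 284 ± 7.94 CPM (SD, n = 2; adjusted p = 2.1e-09 by edgeR). The ratio of Bhlhe40 to Bhlhe41 by FPKM was 0.884 and 0.935 in the WT libraries and 0.903 and 0.917 in the anti-Act1 libraries, and the groups overlapped.

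**Figure D3:**
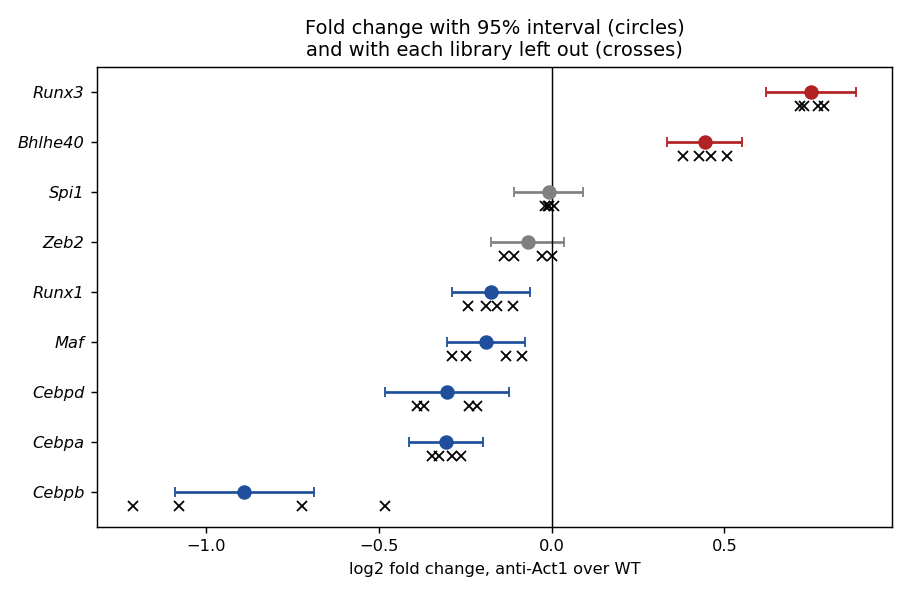
Log2 fold change of each factor, anti-Act1 over WT, as circles with 95% intervals (red higher, blue lower, grey not called in edgeR) and as crosses when each library is left out in turn. Runx3 and Bhlhe40 keep narrow ranges to the right of 0, Cebpb spreads from -1.21 to -0.48, and Spi1 and Zeb2 straddle 0. The 95% interval of Cebpb, -1.09 to -0.69, is narrower than its spread over the crosses.

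The genes whose CPM over the 4 libraries were most like each called factor were found by the Euclidean distance between centered log2 CPM, among 10891 genes with a mean of at least 1 CPM. For Runx3 these were Gng4, Arhgap28 and Scd2 (distances 0.0429 to 0.0516), and for Bhlhe40 Fam102b, Traf6 and Mturn (0.0272 to 0.0396). For Cebpa they were Rnase4, Gatm and Batf3 (0.0210 to 0.0233), for Cebpd Hrh2, Dph2 and Slc12a7 (0.0380 to 0.0454), for Maf Esco1, Far1 and Cpeb3 (0.0200 to 0.0249), and for Runx1 Lcorl, Zfp738 and Zhx1 (0.0153 to 0.0193). For Cebpb the nearest were Cabyr, Gm32687 and Gm1673 at 0.212 to 0.288, so that no gene followed its profile as closely as for the other called factors.

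Among 34 other tested transcription factors of myeloid cells, 6 were higher and 9 lower (44.1% called), with a median log2 fold change of -0.04 beside -0.0046 over all genes tested. The largest rises called were in Ddit3, the stress-induced C/EBP relative CHOP (log2 fold change 0.50), and in Klf4, a monocyte factor (0.47), followed by Bhlhe41. The largest falls called were in Pparg, a lipid-sensing nuclear receptor (-0.81), Id3, an inhibitor of helix-loop-helix factors (-0.80), Nr4a1, a nuclear receptor of patrolling monocytes (-0.79), and Egr2, a zinc finger factor of alternative activation (-0.78; all edgeR adjusted p under 0.05). Irf8, the partner of PU.1, was at 302 and 286 CPM against 283 and 288 CPM (edgeR adjusted p = 0.634), and Gfi1, Myb and Gata2 were too low to be tested. Of 14 tested partners and regulators of the 9 factors, 2 were lower and 0 higher by edgeR (14.3% called, below the 20.7% of all genes tested). These were Trib1, the adaptor through which C/EBPα protein is degraded (log2 fold change -0.32), and Ep300, a histone acetyltransferase (-0.16), and the median over the 14 was -0.05. At an unadjusted edgeR p under 0.05 and in DESeq2, the counts were also 2 lower and 0 higher. The number called was 1 when WT replicate 2 or either anti-Act1 library was left out.

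Genes listed as targets of the factors were counted in the same fit, to be read beside the 20.7% called of all genes tested and the 29.7% of those with a mean of at least 50 CPM. The lists were chosen with earlier results of these data known, so their shares describe the listed genes and do not test the action of any factor. Of 25 listed PU.1 targets, 3 were higher and 5 lower (32% called, near the share at that level), with a median log2 fold change of -0.04. Fgr (0.36), Ncf4 (0.30) and Cd14 (0.16), a kinase, an oxidase subunit and the endotoxin coreceptor, rose; Cd14 was called in 10 of 16 alternatives. Csf3r (-0.48), Itgam (-0.31), Tlr4 (-0.29) and Btk (-0.28) fell; they encode the G-CSF receptor, CD11b, the endotoxin receptor and a signalling kinase. The level of Spi1 itself was the steadiest of the 9 factors.

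Of 19 tested genes listed as C/EBP targets, 10 were higher and 4 lower (73.7% called), with a median log2 fold change of 0.20, while the 3 C/EBP genes fell. Among those with a mean of at least 1 CPM, the largest rises were in Nos2, the inducible nitric oxide synthase (69.4 ± 0.619 to 176 ± 10.4 CPM, SD, n = 2), Saa3, an acute phase protein (91.4 ± 6.47 to 207 ± 7.71 CPM), Ly6c2 (2.60 ± 0.658 to 5.32 ± 0.607 CPM) and Tnf (6.72 ± 0.653 to 13.6 ± 0.680 CPM). Nr4a1 (-0.79), Csf3r (-0.48) and the scavenger receptor gene Msr1 (-0.20) were lower on the log2 scale. Many of these genes also answer to other inflammatory factors.

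Of 19 tested genes listed as MAF targets, 14 were lower and 0 higher by edgeR (73.7% called), with a median log2 fold change of -0.40. At an unadjusted edgeR p under 0.05, 15 were lower and 0 higher, and DESeq2 called 14 of 17 lower and 0 higher. The largest fall among genes with a mean of at least 1 CPM was in Axl, a receptor for apoptotic cells, from 88.8 ± 0.308 to 31.4 ± 1.57 CPM (SD, n = 2; adjusted p = 8.4e-25 by edgeR). On the log2 scale, F13a1, a coagulation factor subunit (-0.69), Mrc1, the mannose receptor (-0.63), and Gas6, the ligand of AXL (-0.60), followed, all with no overlap between groups. Il10, also listed as repressed by ZEB2 or BHLHE40, was among the 5 not called. It measured 1.16 and 1.20 CPM in the WT libraries and 1.34 CPM in both anti-Act1 libraries. Its log2 fold change was 0.18 (adjusted p = 0.721 by edgeR).

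**Figure D4:**
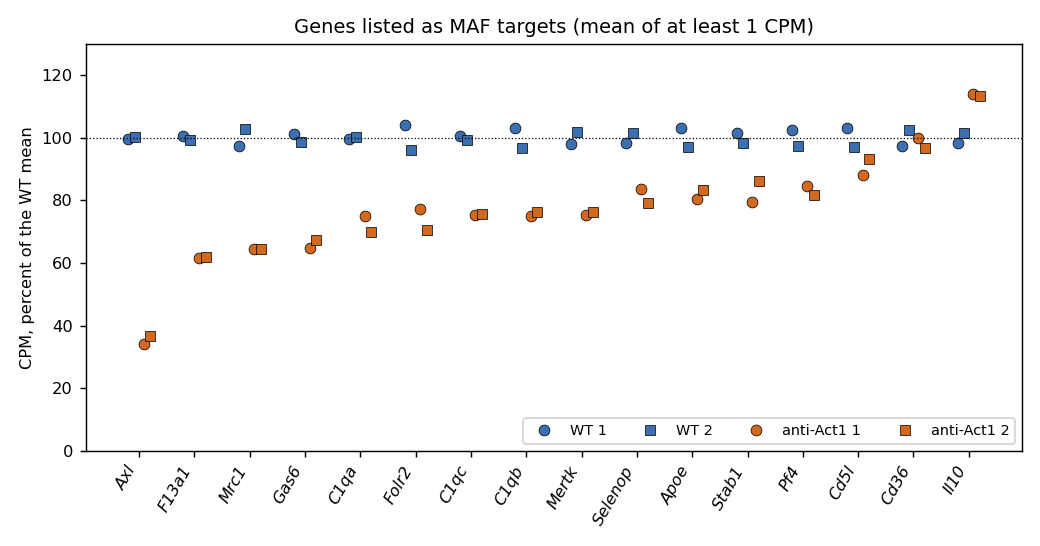
CPM of each listed MAF target with a mean of at least 1 CPM as a percent of its mean over the WT libraries, with WT in blue and anti-Act1 in orange and circles and squares for replicates 1 and 2. The anti-Act1 points of Axl are the lowest of the genes plotted, and only Cd36 and Il10 have an anti-Act1 point above a WT point.

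Of 6 tested genes listed as RUNX targets, the integrin genes Itgal (-0.43), Itga4 (-0.32) and Itgax (-0.23) were lower on the log2 scale and 0 were higher by edgeR (50% called), with a median of -0.15. An unadjusted edgeR p under 0.05 and DESeq2 also gave 3 lower and 0 higher. Of 13 tested genes listed as repressed by ZEB2 or BHLHE40, 5 were higher and 0 lower by edgeR (38.5% called), with a median log2 fold change of 0.20. At an unadjusted edgeR p under 0.05, 8 were higher and 1 lower, and DESeq2 called 4 higher and 0 lower. The 1 lower was Nr1h3 (log2 fold change -0.16), and the sources used here do not give whether either factor represses it. The 5 called higher by edgeR include the clock repressors Per2 (0.70), Nr1d1 (0.32) and Per1 (0.28) and Bhlhe41, while Bhlhe40 itself rose. Without WT replicate 1 the number called was 2, and Nr1d1 was called in 5 of 16 alternatives. Of 19 early response genes tested, 6 were higher and 7 lower (68.4% called), with a median log2 fold change of -0.10. Among those with a mean of at least 1 CPM, the largest rises called were in Ier3 (0.45), Jun (0.23), Junb (0.21) and Dusp1 (0.21) and the largest falls in Fosb (-0.86), Nr4a1, Egr2 and Myc (-0.76).

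**Figure D5:**
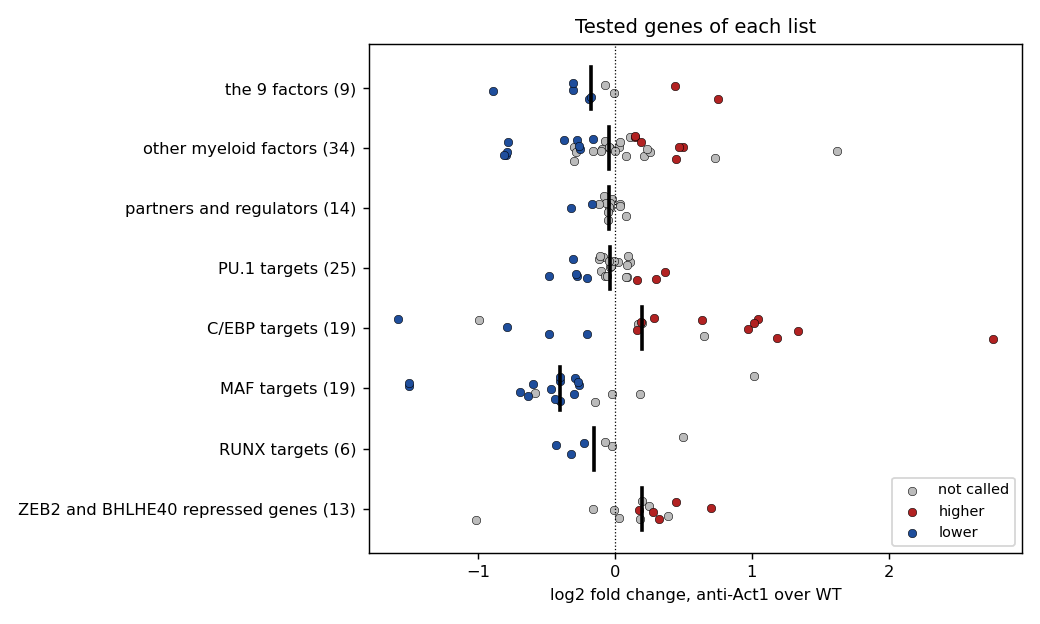
Log2 fold change of every tested gene of each list, anti-Act1 over WT, with the number tested in parentheses, the median as a black bar, and genes called higher in red, lower in blue and not called in grey. The listed MAF targets lie mostly to the left of 0 and the listed C/EBP targets mostly to the right.

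The libraries were those of macrophages by their markers. The 12 macrophage markers summed to 32167 and 31157 CPM in the WT libraries and 32245 and 32977 CPM in the anti-Act1 libraries, with Lyz2 the most abundant. Of them 1 was higher (Cd14) and 5 were lower (Mrc1, C1qa, Mertk, Itgam and Aif1), 4 of which are also on a target list above. These are 50% of the 12, against 20.7% of all genes tested and 29.7% of those with a mean of at least 50 CPM. DESeq2 called 1 higher and 4 lower, and limma 0 higher and 4 lower. The other cell types were low: summed dendritic cell markers lay at 5.41 to 6.69 CPM (Clec9a the most abundant, Cd209a at 0), T cell markers at 1.02 to 1.65 CPM (Lck, with Cd8b1 at 0) and B cell markers at 2.91 to 4.03 CPM (Cd79b, with Ebf1 at 0). Mast cell and basophil markers (0.551 to 1.13 CPM, Kit the most abundant, Fcer1a at 0), fibroblast markers (1.76 to 2.48 CPM, Pdgfrb, Lum at 0), erythroid markers (0.290 to 0.632 CPM, Klf1, with Hbb-bs, Hba-a2 and Car1 among those at 0) and epithelial tumor cell markers (0.330 to 0.898 CPM, Vil1, with Krt8, Krt18, Krt20 and Cldn4 at 0) also had sums of this size. In these lists, edgeR and DESeq2 called 0 genes, and 1 gene, of the fibroblast list, had an unadjusted edgeR p under 0.05.

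Markers of granulocytic, immature, dividing and osteoclast cells were counted in the same way. Of 9 tested neutrophil markers, 4 were lower and 1 higher by edgeR (55.6% called), 3 of the lower ones with a mean under 1 CPM, and DESeq2 called 2 lower and 1 higher of 6. S100a9 fell from 1.69 ± 0.192 to 0.625 ± 0.262 CPM and S100a8 rose from 3.67 ± 0.0959 to 5.82 ± 0.382 CPM (SD, n = 2). The sum of these markers, 527 and 542 CPM against 550 and 532 CPM, was mostly Mmp8. The 8 progenitor markers summed to 5.01 and 5.39 CPM in the WT libraries and 3.71 and 3.15 CPM in the anti-Act1 libraries, with Sox4, the most abundant, the 1 gene of 4 tested that was called by edgeR (lower) and not called in DESeq2. Of 12 cell cycle genes, Top2a (log2 fold change -0.71), Mcm5 (-0.55) and Mcm3 (-0.29) were lower and 0 were higher by edgeR (25% called, near the 20.7% of all genes tested), with 7 lower and 0 higher at an unadjusted p under 0.05 and 2 lower and 0 higher in DESeq2; without anti-Act1 replicate 1 edgeR called 1. Of 6 tested osteoclast markers, Mmp9 (0.96), Acp5 (0.43) and Ctsk (0.42) were higher and Dcstamp (-1.26) and Atp6v0d2 (-0.23), the most abundant, were lower, with sums of 1130 and 1157 CPM against 1192 and 1167 CPM. The part of these cells and of the Y-linked difference in the levels of the 9 factors was not tested.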

How the data were processed

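RNA was sequenced from 4 libraries of macrophages cocultured with MC38 cells, 2 per genotype. Adapter-containing, poly-N and low-quality reads had been discarded by the authors, who aligned read pairs with TopHat. The submitters' processing notes name Bowtie 0.12.2, HTSeq 0.6.1 and the builds mm8 and mm10, without their roles. The study gives another version of Bowtie, as the tool that built the genome index. The authors deposited whole counts per gene without normalization. The FPKM deposited by the authors equal these counts divided by gene length and by the column total. Strandedness of the counting is not given in the sources used here.

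Counts were tested with edgeR 4.0.16 (R 4.3.3; TMM, filterByExpr, condition only). P-values rest on the spread between 2 samples a group, stated to be biological replicates, and edgeR moderates this spread over genes. They do not measure a gene's own replicate spread alone. Replicate counts differed by more than sampling noise (chi-square per degree of freedom 10.4 in WT, 7.22 in anti-Act1). The alternatives were DESeq2 1.42.0, its size factors used in edgeR, library totals alone, no filter, a minimum of 10 counts in every library, the replicate block, length and GC trends removed by loess (span 0.3), limma 3.58.1 on log2 of FPKM plus 1 or 0.1 (FPKM of at least 1 in 2 libraries, or no filter), thinned counts and each library left out. GC content and overlaps came from GENCODE M21 and promoters from RefSeq (GRCm38.p6); 96.6% of tested genes had a GC value. The fits were tested on simulated data.

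The 9 members and all lists were chosen with earlier results of these data known. Named were the members, Traf3ip2, Y-linked genes, up to 4 higher and 4 lower genes of each list (adjusted p under 0.05, mean of at least 1 CPM, no overlap, largest log2 fold change), the most abundant gene of a marker list, list genes at 0, and the 3 nearest profiles of each called member; genes outside this rule were named after their values were seen. A spreadsheet had turned 27 gene names, none of them a member's, into dates. Some genes that meet this rule are not reported here.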

Additional observations from a re-analysis of the deposited data

How the results depend on the processing

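Over 16 alternatives each, the log2 fold changes of Cebpa, Runx3 and Bhlhe40 kept their direction and their calls, and no alternative called Spi1 or Zeb2. DESeq2 called 2 members lower, with log2 fold changes of -0.19 for Maf, -0.89 for Cebpb and -0.30 for Cebpd, none of these 3 called; the cause was not tested. Limma on log2(FPKM + 1) and on log2(FPKM + 0.1) called 3 members lower each, with Maf at -0.21 and -0.21 and Runx1 at -0.19 and -0.20 no longer called, and called 1 partner or regulator and 2 genes listed as repressed by ZEB2 or BHLHE40 each. Limma on log2(FPKM + 1) with no filter called 1091 genes in all and 1 member lower, with Maf at -0.21, Cebpb at -0.88, Cebpd at -0.29 and Runx1 at -0.19 not called. It called 9 other myeloid factors, 1 partner or regulator, 4 listed PU.1 targets, 9 C/EBP targets, 1 RUNX target and 1 gene listed as repressed by ZEB2 or BHLHE40. No composition normalization left 3 of the genes listed as repressed, and a minimum of 10 counts in every library gave 5 cell cycle genes.

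Leaving out each library in turn gave 1671 to 2543 genes called in all, 3 to 4 members lower, 1 to 2 partners or regulators, 2 to 6 genes listed as repressed and 1 to 4 cell cycle genes, with 1712 and 1671 genes when anti-Act1 replicate 1 or 2 was left out, 2 repressed genes without WT replicate 1 and 1 cell cycle gene without anti-Act1 replicate 1. The log2 fold changes then ran from -0.29 to -0.086 for Maf, from -1.21 to -0.48 for Cebpb, from -0.39 to -0.22 for Cebpd, from -0.24 to -0.11 for Runx1, from -0.020 to 0.0065 for Spi1 and from -0.14 to 0.0014 for Zeb2. The mean WT level of Spi1 was 245 when CPM were divided by length, against 247 FPKM. With the replicate block, 2406 genes, 2 members higher and 5 lower were called, and it changed no member's call. The deviations of same-numbered libraries correlated at -0.089 across genes, which does not settle whether the numbers stand for a shared batch. Among genes with at least 50 CPM, the median log2 ratio of replicate 1 to 2 varied with GC content. From under 40% to 60-65% GC it went from -0.093 to 0.057 in WT and from 0.065 to -0.024 in anti-Act1. The cause was not tested. With 2 libraries a group, the standard errors borrow their spread from other genes.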
